A study of Danio rerio with 26 samples.

Results

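Zebrafish embryos labelled pCas13d alone were compared with wild-type embryos of the same age, 4 hours post fertilisation (hpf), by RNA sequencing of whole embryos. The comparison takes all 3 pCas13d-alone libraries and all 3 wild-type 4 hpf libraries, 6 of the 26 libraries of a series on oocytes and early embryos; the members were chosen by their sample labels alone, and genes were joined by identifier across 2 tables. Both groups are whole embryos with the genotype entry AB, TF and TLF, and no other allele is named. Each wild-type library came from 20 pooled dechorionated embryos and 500 ng of RNA, prepared as a ribosomal-RNA-depleted stranded total RNA library and read as 75 bp single reads on a NextSeq500, per the labels and the series' design text. The pCas13d-alone libraries are labelled as run on another instrument, the G4 of Singular Genomics, and the heading that names ribosomal RNA depletion does not stand in their protocol. Their protocol text otherwise repeats that of the embryo time course and its NextSeq500 run, so the library kit, RNA input, number of embryos and amount of pCas13d of those 3 libraries are unclear, as is the origin of their replicates, so their spread may be technical.

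Because treatment, table, sequencer and library run all change together between the groups, their effects cannot be told apart in any comparison below, and each p-value compares these libraries. The embryos labelled znf281b KD (3 libraries) share the table and sequencer of the pCas13d-alone embryos, so their values are given beside those of the pair compared, as values only. A comparison of the knockdown with wild type would share its wild-type libraries with the one made here, and none was tested.

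Cas13d is a nuclease that guide RNAs direct to matching transcripts, which it then cuts, and it is used in embryos to deplete them; the nuclease without guides serves as the control of such a knockdown. At 4 hpf the zebrafish embryo is a late blastula in the middle of the maternal-to-zygotic transition. RNAs laid down by the mother are being cleared, partly through the microRNA miR-430, while the embryo's own genome is activated by Pou5f3, Sox19b and Nanog. The embryo at this stage holds an enveloping layer, a yolk syncytial layer and a deep cell mass that is beginning to be patterned.

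Expression was deposited as TPM, each gene's length-corrected share of its library, so that a class of RNA that fills one library lowers every other gene there. Levels below are scaled TPM, in which each library was divided by the median ratio of its genes to the geometric mean of the 6 libraries over 12585 genes. This ratio was 0.347 to 0.417 in wild type at 6 hpf and 0.678 to 0.83 in wild type at 4 hpf. Levels compared between stages therefore depend on the scaling, and 6 hpf levels are raised by it the most. Markers of the blastula were present in both groups, with 10 of 10 tested and a summed level of 1495 to 2438 in wild type and 2583 to 3689 with pCas13d. Of 8 ovarian follicle, 6 blood, and 5 liver and yolk protein marker genes none reached the level for testing, and their summed levels were at most 0.427, 0.748 and 0 in any of the 6 libraries, with the vitellogenin genes vtg1, vtg2, vtg5 and vtg7 listed at 0. Over 12441 protein-coding genes, the rank correlation of a pCas13d-alone library with a wild-type library was 0.866 to 0.911 at 4 hpf, 0.735 to 0.794 at 2 hpf and 0.695 to 0.786 at 6 hpf, as a description of libraries that share genes and, within a stage, a table. Among the pCas13d-alone libraries it was 0.974 to 0.988. They differed in their order: libraries 1 and 2 read 0.789 to 0.794 with 2 hpf and 0.695 to 0.735 with 6 hpf. Library 3 read 0.735 to 0.739 with 2 hpf and 0.762 to 0.786 with 6 hpf.

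The widest contrast between the groups lay in RNA classes outside the ordinary messenger RNAs. The 5 classes summed were copies of the signal recognition particle RNA (7SL, the RNA core of the particle that directs secreted proteins to the endoplasmic reticulum), small nuclear, nucleolar and related RNAs, replication-dependent histone genes (whose messages end in a stem-loop in place of a poly(A) tail), copies of miR-430, and the ribosomal and transfer RNAs of the mitochondrion. Together they held 46.8, 49.6 and 45.4% of TPM in the wild-type libraries and 0.382, 0.279 and 0.342% in the pCas13d-alone libraries. The znf281b KD libraries held 0.295 ± 0.0188% (SD, n = 3), and the other wild-type stages 30.8 to 47.4%. The low share was thus seen in all 6 libraries of the knockdown table and in none of the 12 of the embryo table. These lists, the first of them and part of the others' membership chosen after values were seen, hold 2822 genes, of which 336 were tested.

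**Figure D1:**
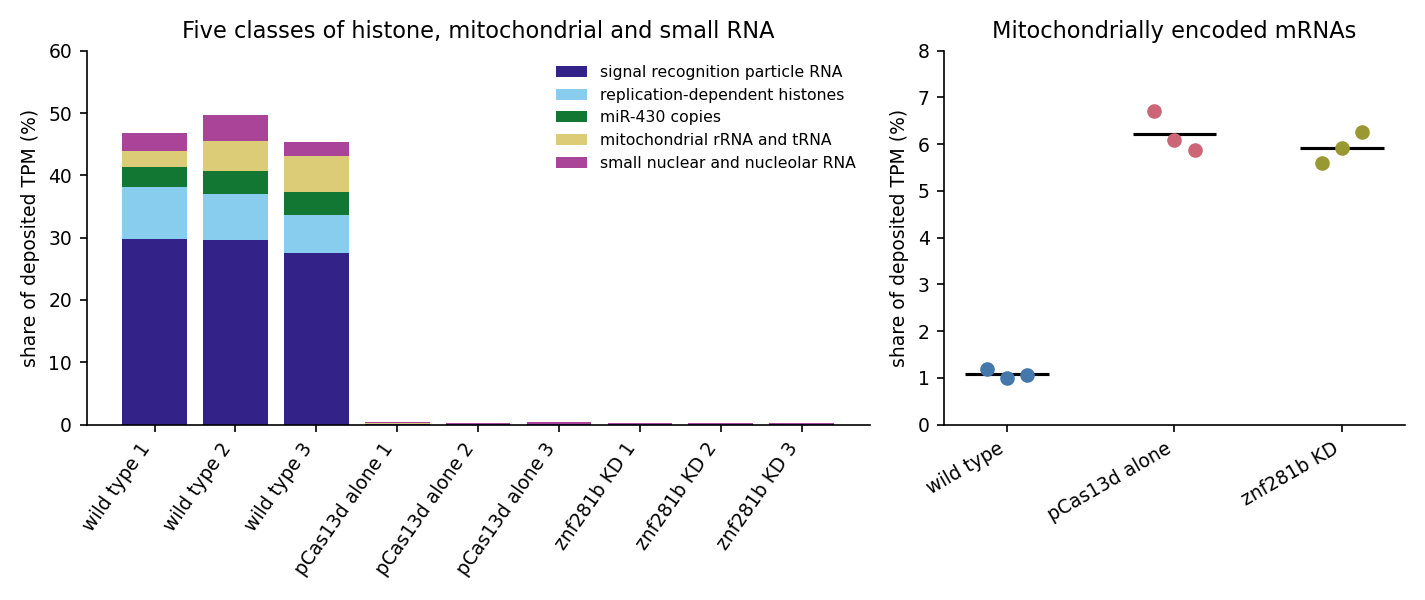
Left, share of deposited TPM (percent) held by 5 RNA classes in each 4 hpf library, stacked by class. Right, share of TPM of the 13 protein-coding genes of the mitochondrial genome, with a point per library and a line at the mean. The classes fill 45.4 to 49.6% of the wild-type libraries and under 1% of the other libraries, while the mitochondrial messages go from 1.08% to 6.23% between the groups compared.

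The signal recognition particle RNA copies made up 29.8, 29.7 and 27.6% of TPM in wild type and 0.0289, 0.0057 and 0.0062% with pCas13d. Of 81 copies 71 reached 1 TPM in at least 3 libraries, the level for testing, and 25 of these did so through wild type alone, so a count of calls among them carries no information. Reads can be split between such copies, so the sum is more certain than any of them. For the 52 replication-dependent histone genes the shares were 8.37, 7.43 and 6.07% against 0.028, 0.0241 and 0.0432%. Of these 51 were lower, beside 12.3% of all genes, with a median log2 difference of -9.03. For 1 of the 52 no pCas13d-alone library reached 1 TPM, and 50 of the other 51 were lower. The level for testing asks for 3 libraries, so some of these 51, such as hist1h4l, still needed wild type to reach it. Such genes were prone to be called lower, so the count is a description. The histone H4 gene hist1h4l stood at 3854, 3592 and 2203 in wild type and 1.1, 1.43 and 0 with pCas13d. The one member that did not pass was hist2h2l, at a mean of 12.9 in wild type and 12.1 with pCas13d.

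miR-430, the microRNA family that targets maternal messages for clearance, was listed at 0 in every pCas13d-alone and znf281b KD library. Its copies held 3.08, 3.66 and 3.78% of TPM in the wild-type libraries. The copy dre-mir-430a-4 read 3342, 4424 and 3376 there. Of 55 copies 31 reached the level for testing, all through wild type alone, so that they had to be called lower if called at all, and no count is read from them. A value of 0 allows no fold. Several copies carry identical values, so they are not separate measurements. Of 2610 small nuclear, nucleolar and related RNA genes 180 reached the level for testing, 118 of them through wild type alone. Of the other 62, which reached 1 TPM in at least 1 pCas13d-alone library, 42 were lower and 1 higher, beside 12.3% and 6.79% of all genes. The level for testing asks for 3 libraries, so members of these 62 can still have needed wild type to reach it. Their count is a description. The 7SK RNA gene rn7sk, which holds the elongation kinase P-TEFb inactive, fell from 2896, 3822 and 1575 to 0, 0.5 and 0.58. It reached the level for testing through wild type alone, so it had to be called lower if called at all. rpph1, the RNA of ribonuclease P, was above 1 TPM in every library compared and fell from 4338, 4080.3 and 2297 to 3.96, 1.18 and 2.01. The higher gene, CABZ01060112.2, was listed at 0 in wild type and at 21.7, 14.7 and 10.6 with pCas13d. It reached the level for testing through the pCas13d-alone libraries only, so it had to be called higher if called at all.

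Across all 14955 genes tested with limma, 1015 were higher (6.79%) and 1841 lower (12.3%) in the pCas13d-alone libraries by at least 2-fold at a Benjamini-Hochberg adjusted p under 0.05. The 5 RNA classes hold 315 of the lower genes and 1 of the higher, and 278 of the 432 that were lower by at least 8-fold. Only 42 genes were higher by that much. Of all genes tested, 303 reached the level for testing through wild type alone and could only be called lower. Among the other 14652, 1015 were higher and 1546 lower. The 12.3% given beside the lists thus includes calls whose direction was fixed. Genes that reached the level through the pCas13d-alone libraries only were not counted. The levels of 56.7% of genes tested did not overlap between the groups. Among the 12489 protein-coding genes 6.92% were higher and 9.64% lower, and their median log2 difference was 0.024, beside -0.023 over all genes tested. The split of calls turns on the scaling. Of the genes called, 35.5% were higher here, 87.2% in TPM as deposited, 56.1% after quantile normalisation and 37.7% when TPM was recomputed without the 5 classes. The median gene moved by 0.73 on the log2 scale in TPM as deposited, by 0.19 after quantile normalisation and by -0.03 in the recomputed TPM. Every difference below is therefore relative to the median gene.

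**Figure D2:**
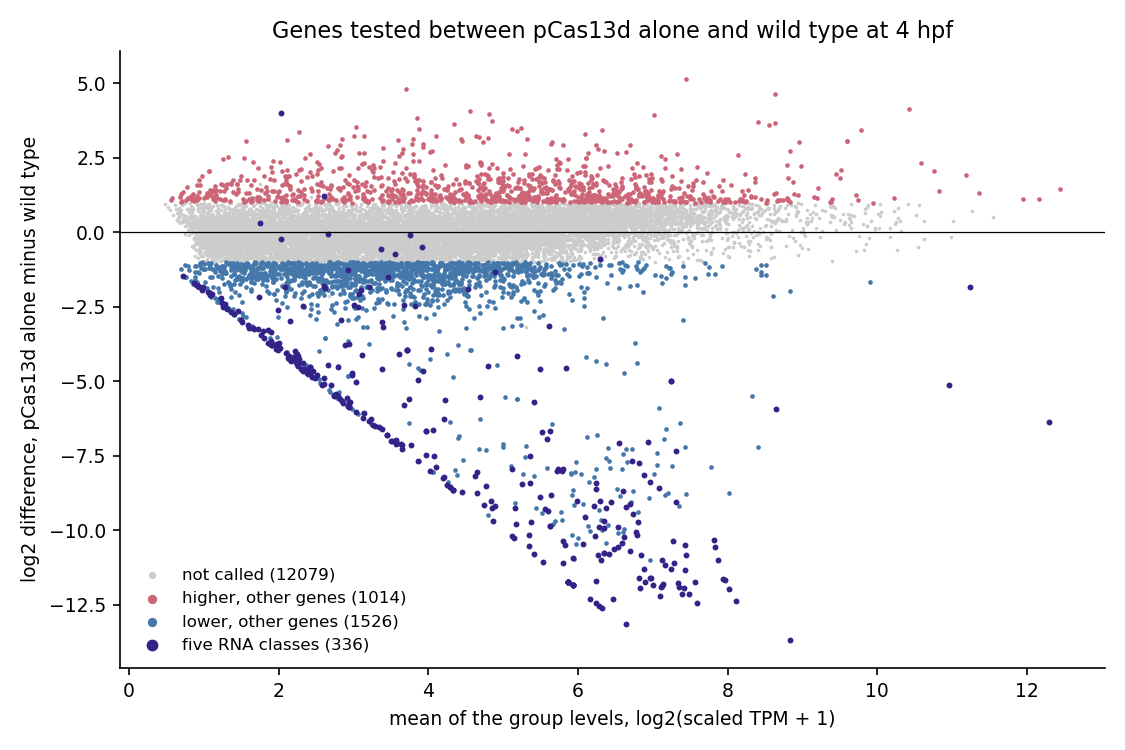
Log2 difference between pCas13d alone and wild type (vertical) against the mean of the group levels in log2(scaled TPM + 1) (horizontal), with a point for each of 14955 genes tested. The 336 genes of the 5 RNA classes lie mostly along the lower edge, which is the line of genes at or near 0 with pCas13d, and the other genes called lie on both sides of 0.

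Several genes of nuclear RNA-binding proteins were among the largest differences with pCas13d. The gene with the largest difference by the naming rule was taf15, which encodes an RNA-binding protein of the FET family. Its level was 23.3, 35.6 and 25.96 in the wild-type libraries and 1009.6, 953 and 1128 in the pCas13d-alone libraries (log2 difference 5.16 ± 0.17 SE, adjusted p = 1.16e-07). Every pCas13d library lay far above every wild-type library. hnrnpaba, encoding a heterogeneous nuclear ribonucleoprotein (hnRNP), went from 40.7, 119 and 85.7 to 1621, 1846 and 2260.1 (log2 difference 4.64 ± 0.35 SE, adjusted p = 2.37e-05). hnrnpa1a, a splicing regulator, went from 27.7, 36.5 and 31.96 to 465, 484 and 568, and its paralogue hnrnpa1b from 113, 101 and 116 to 1298, 1322 and 1677. The znf281b KD libraries lay near the pCas13d-alone libraries for all 4, at 872 ± 49.3, 1495 ± 85.98, 397 ± 25.03 and 1164 ± 12.4 (mean ± SD, n = 3, as for all znf281b KD values below). In wild type at 6 hpf taf15 reached a mean of 99.6 and hnrnpaba 388, above their 4 hpf levels and below those of the pCas13d-alone libraries.

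Over the list of hnRNP, SR and FET genes, chosen after such genes were seen among the largest differences, 27 of 50 tested were higher and 0 lower, beside 6.79% and 12.3% of all genes. Their median log2 difference was 1.01, beside -0.02 over all genes, and it stayed above 0 under each scaling tried. As the list was chosen on these values, its count is a description. srrm1, a splicing coactivator, rose from 22.4, 19.2 and 20.4 to 183, 204 and 251 (log2 difference 3.29 ± 0.14 SE, adjusted p = 6.28e-07), and hnrnpm from 55.7, 69.9 and 63.1 to 359.9, 364 and 478. The SR protein gene srsf7a went from 290.0, 259.7 and 237 to 803, 769 and 953. All groups were separate for these 3 genes. Other members hardly differed: hnrnpc stood at 165, 147 and 149 in wild type and 212, 176 and 179 with pCas13d (log2 difference 0.29 ± 0.12 SE, adjusted p = 0.0816), though it passed in TPM as deposited (1.18).

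Of 32 genes of RNA polymerase II and its elongation factors, a list also chosen after values were seen, 7 were higher and 0 lower (median 0.53), beside 6.79% and 12.3% of all genes. The count of higher genes was 23 in TPM as deposited and 10 after quantile normalisation. polr2a, the largest polymerase subunit, went from 18.1, 14.9 and 16.9 to 114, 129 and 177. ccnk, the cyclin partner of the elongation kinase gene cdk12, rose from 7.64, 8.73 and 8.4 to 75.8, 81.5 and 87.96, and cdk12 itself from 28.7, 31.2 and 32.4 to 129.9, 149 and 161. leo1, of the PAF elongation complex, went from 5.07, 9.34 and 7.09 to 62.8, 73.2 and 88.9. Most smaller polymerase subunits were not called, with polr2b at a mean of 54.7 in wild type and 63.02 with pCas13d, and polr2d at 27.2 and 32.1. The naming rule also gave psip1b, r3hdm1, sec24a, rbm4.3, sap130b, wbp11, arid2 and ubn2b as higher, besides mt-atp8 and h2az2b, with log2 differences between 3.48 and 4.16. arid2 encodes a chromatin remodelling subunit, ubn2b a histone chaperone subunit and sec24a a coat protein of vesicles that leave the endoplasmic reticulum.

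**Figure D3:**
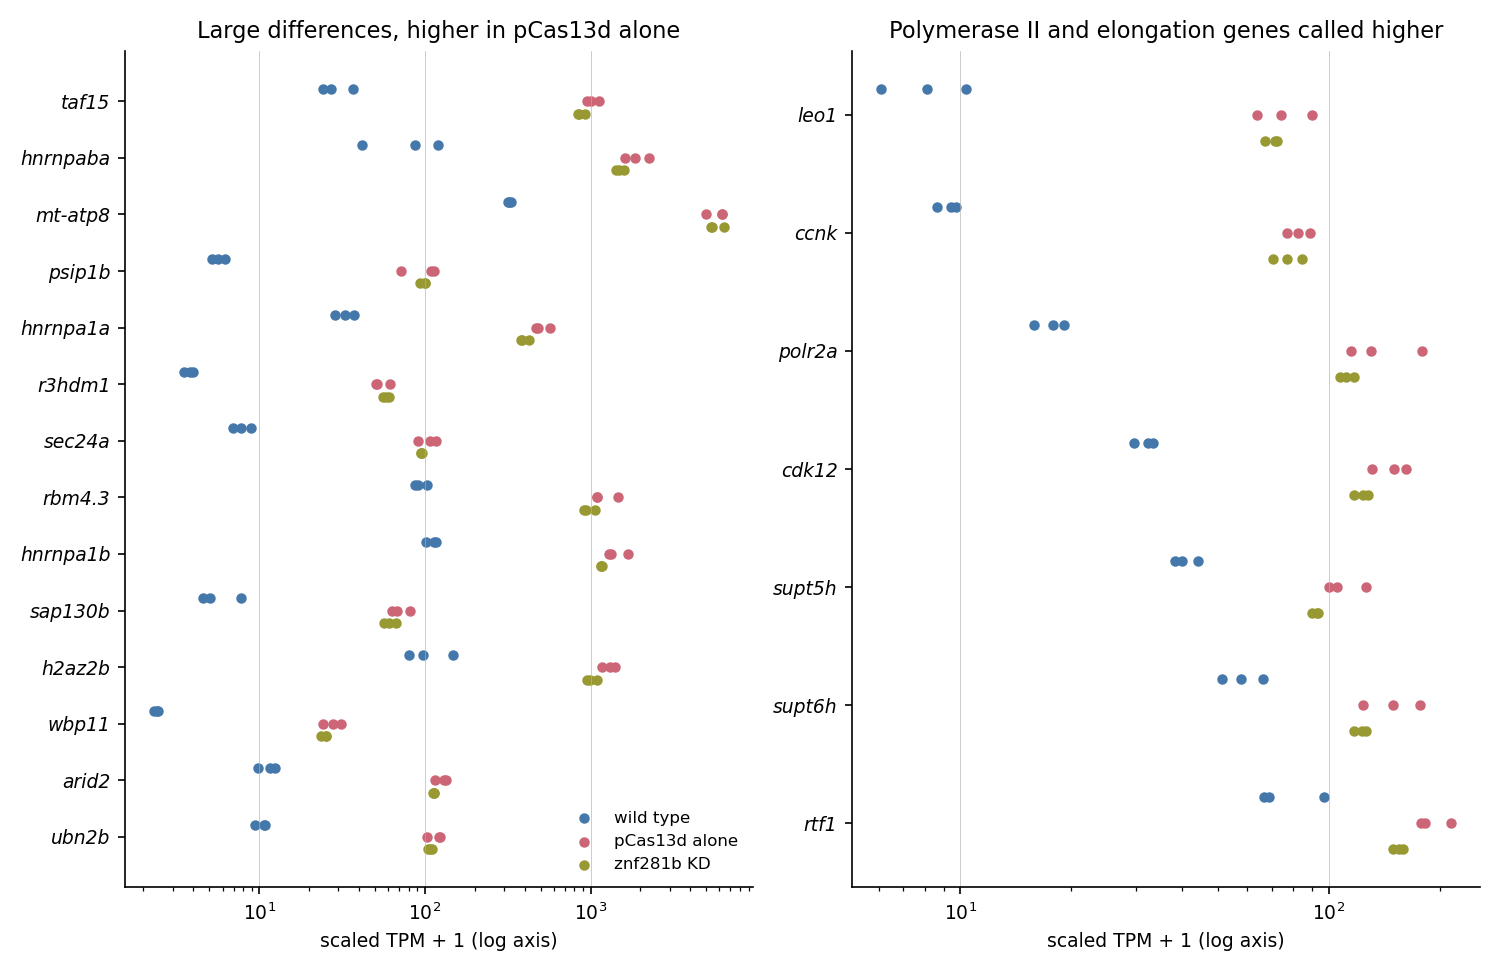
Scaled TPM plus 1 on a log axis, with a point per library, for 14 genes of large positive difference by the naming rule (left) and 7 polymerase II and elongation genes called higher (right), in wild type, pCas13d alone and znf281b KD at 4 hpf. In every gene shown the 3 wild-type points lie to the left of all 6 points of the knockdown table.

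Histone genes listed as replacement variants, most of whose messages carry poly(A) tails and are made outside S phase, differed among themselves. In a list of 14 tested members chosen after values were seen, 3 were higher and 2 lower (median 0.59), beside 6.79% and 12.3% of all genes. In TPM as deposited 10 were higher and 2 lower, and after quantile normalisation 7 and 2. In the TPM recomputed without the 5 classes, where genes of those classes were left out and could not be called, 1 was lower. h2az2b, an H2A.Z gene, rose from 79.6, 146 and 97.03 to 1305, 1171 and 1411 (log2 difference 3.62 ± 0.22 SE, adjusted p = 5.7e-06), and the H3.3 gene h3f3d from 139.8, 220.0 and 159 to 1401, 1197 and 1644. Their paralogues differed less: h2az2a stood at a mean of 654 in wild type and 986 with pCas13d, and the more abundant copy of h3f3b.1 at 1815 and 2364, neither of them called. The lower members were h2ax, from 2555, 2211 and 1547 to 35.9, 32.9 and 75.7, and hist1h2a11. The latter carries a hist1 name like replication-dependent genes above. As 1 lower member also belongs to the 5 classes, the lists overlap, and this one may not hold replacement variants alone. The maternal linker histone h1m was not called, at 541 and 824.

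Messages of the mitochondrial genome moved the opposite way to its ribosomal RNAs. The 13 protein-coding genes held 1.19, 0.985 and 1.07% of TPM in wild type and 6.71, 6.09 and 5.88% with pCas13d. Of these 12 were higher and 1 lower in each scaling tried, beside 6.79% and 12.3% of all genes. The higher ones were 9 without pCas13d library 1, and 10 without wild-type library 3 or with the replicate number as a block. They were 11 without pCas13d library 3 or with no filter on low values. mt-atp8, a subunit of ATP synthase, went from 329, 320.4 and 318 to 6207, 6232 and 4973 (log2 difference 4.16 ± 0.16 SE, adjusted p = 3.56e-07), and mt-nd4l, of complex I, from 298, 269 and 234 to 3017, 2957 and 2749. The most abundant member, the cytochrome oxidase gene mt-co1, went from 3788, 3269 and 2990.4 to 8789, 8241 and 10688 (log2 difference 1.46 ± 0.24 SE, adjusted p = 0.00166). The one lower member was mt-nd6, encoded on the strand opposite to the other 12, which went from 515, 1079.8 and 845 to 273, 139.8 and 145 (log2 difference -2.13 ± 0.33 SE, adjusted p = 0.00116). The 2 tested mitochondrial RNA genes, NC_002333.4 and NC_002333.17, were lower, the former from 30481, 54317 and 53699.6 to 634, 482 and 513. The znf281b KD libraries again lay near the pCas13d-alone libraries, with mitochondrial messages at 5.92 ± 0.329% of TPM (SD, n = 3).

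Many genes of the DNA damage response, growth arrest and cell death were higher with pCas13d. Cells switch such genes on when DNA is broken or when other stress halts the cycle. Of 22 tested members of the list 12 were higher and 1 lower, with a median log2 difference of 1.01, beside 6.79% and 12.3% of all genes. The counts were 17 and 0 in TPM as deposited, 11 and 1 after quantile normalisation, and 10 and 1 in the TPM recomputed without the 5 classes. Without wild-type library 2 or pCas13d library 2 the lower members were 2.

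phlda3, an Akt inhibitor, stood at 6.74, 12.8 and 3.74 in wild type and 68.5, 62.05 and 89.96 with pCas13d (log2 difference 3.21 ± 0.35 SE, adjusted p = 0.000206). cdkn1a, the cell cycle inhibitor p21, went from 25.9, 24.6 and 18.9 to 79.5, 83.6 and 92.8 (log2 difference 1.85 ± 0.14 SE, adjusted p = 3.24e-05). mdm2, a ubiquitin ligase gene, went from 71.2, 118 and 50.03 to 255, 239 and 371 (log2 difference 1.9 ± 0.30 SE, adjusted p = 0.00133). In all 3 the lowest pCas13d library lay above the highest wild-type library. The cell death genes pmaip1 and bbc3 also rose, from 9.41, 10.7 and 4.67 to 33.5, 23.8 and 44.4 and from 7.81, 11.3 and 5.3 to 31.4, 34.2 and 26.6. sesn3 was higher as well, from 5.77, 21.7 and 3.87 to 29.7, 33.5 and 68.2, with the widest wild-type spread relative to its mean among those named. ccng1, the most abundant member, was at the limit with 664, 782 and 637 against 1406, 1248 and 1520.2, and its call is lost in 5 of the alternatives. The single lower member was the stress gene sesn2, from 24.6, 22.2 and 27.4 to 7.79, 8.26 and 8.05 (log2 difference -1.5 ± 0.14 SE, adjusted p = 9.6e-05), which no longer passed in TPM as deposited (-0.68).

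In the znf281b KD libraries several of these genes stood higher still, at 179 ± 27.6 for phlda3, 187 ± 31.6 for cdkn1a, 599.5 ± 82.9 for mdm2 and 91.5 ± 12.8 for bbc3. At the other wild-type stages cdkn1a read 0.809 at 2 hpf and 12.3 at 6 hpf, and phlda3 0.456 and 15.3, so the pCas13d-alone level of both lay above all 4 wild-type stages. For mdm2 the 6 hpf mean was 203, below that of the pCas13d-alone libraries, and for ccng1 it was 1229.

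**Figure D4:**
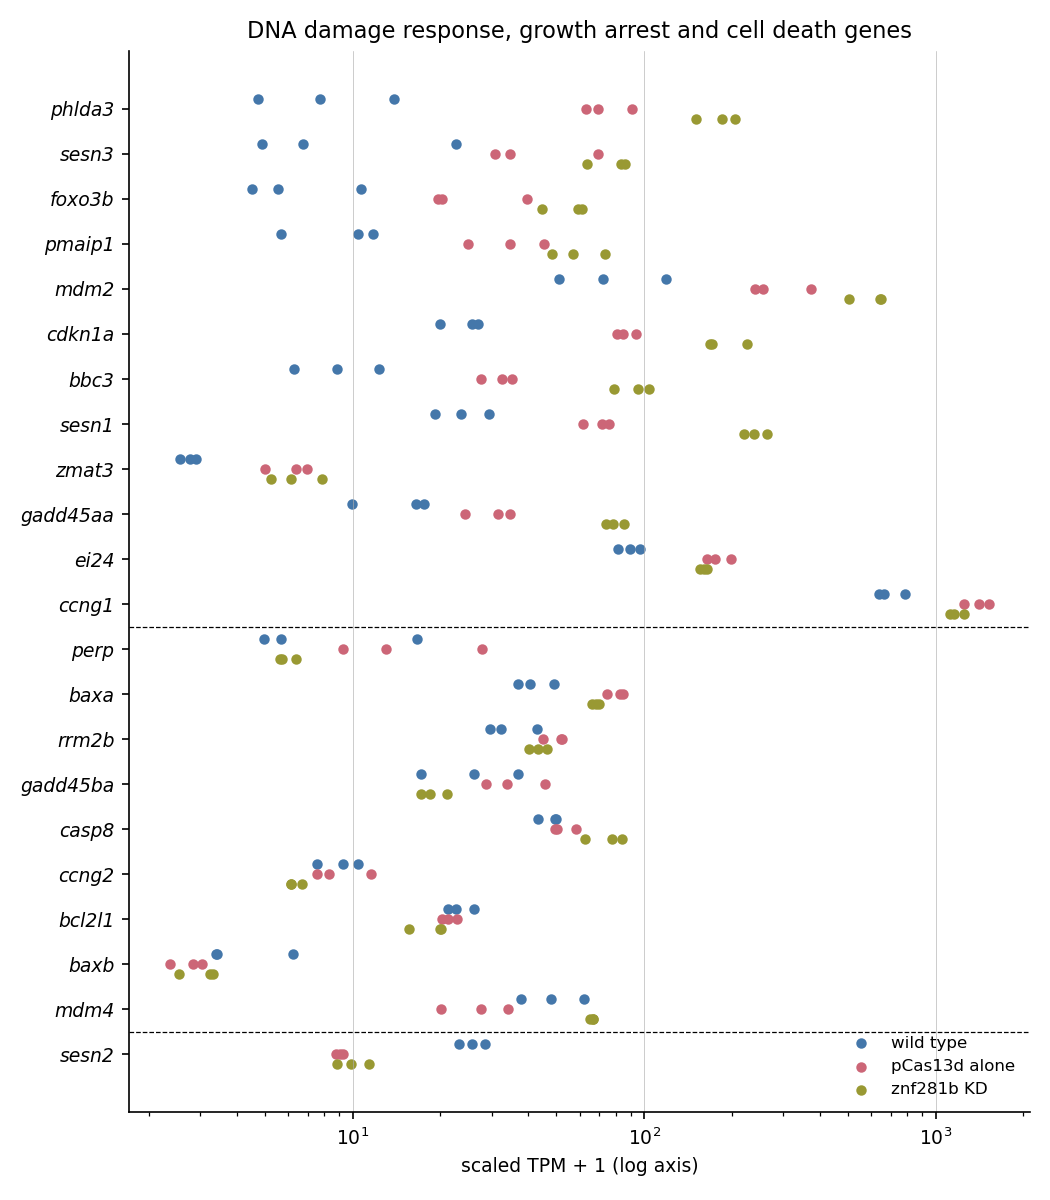
Scaled TPM plus 1 (log axis) of each of the 22 tested genes of the damage response, growth arrest and cell death list, ordered by log2 difference, with a point per library for wild type, pCas13d alone and znf281b KD. The 12 genes above the upper dashed line were called higher with pCas13d, the gene below the lower dashed line was called lower, and the 9 between were not called.

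Interferon and antiviral genes were few at this stage, with 11 of 27 listed genes tested, of which 4 were higher and 1 lower, beside 6.79% and 12.3% of all genes. The higher members were 2 at a mean of at least 10 TPM, and the lower ones 2 with a pseudocount of 0.1, in the recomputed TPM, or without wild-type library 1, wild-type library 2 or pCas13d library 1. isg15, a ubiquitin-like protein induced by interferon, went from 17.6, 29.1 and 11.8 to 195, 113 and 143 (log2 difference 2.94 ± 0.31 SE, adjusted p = 0.000178) and stood at 237 ± 23.9 in the znf281b KD libraries. adar, which edits double-stranded RNA, went from 33.99, 39.6 and 36.1 to 68.5, 80.5 and 95.4. The interferon gene ifnphi1 and ifit8 were also called, at means of 1.18 and 1.34 in wild type and 3.42 and 6.801 with pCas13d, levels at which TPM is least precise. Both wild-type means lie near the level for testing. These genes may thus have reached it through the pCas13d-alone libraries only, a route that was not counted. If so, they had to be called higher if called at all, and the count of 4 higher genes includes both. Of the 11 genes tested, 1 reached the level through wild type alone. samhd1, an enzyme that degrades deoxynucleotides, was lower, from 25.5, 28.7 and 31.7 to 12.9, 10.3 and 8.24, though not past the threshold in TPM as deposited (log2 difference -0.54, adjusted p = 0.0638).

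Few members of the other stress lists were called, beside 6.79% higher and 12.3% lower over all genes, but their split turned with the scaling. In TPM as deposited the heat shock, immediate early and oxidative stress lists had 11, 11 and 9 higher members and 0 lower, and after quantile normalisation 5, 3 and 4 higher and 2, 1 and 3 lower. Of 34 heat shock and unfolded protein genes 1 was higher, atf4b, and 3 lower, with xbp1, a transcription factor of the unfolded protein response, going from 249, 254 and 219.9 to 89.4, 90.6 and 106 and the chaperone gene hspa4a from 43.6, 34.9 and 52.3 to 14.7, 18.2 and 14.4. Without wild-type library 2 the list gave 3 higher and 5 lower, without pCas13d library 2 it gave 2 and 5, and without pCas13d library 1 it gave 2 higher. Among 21 immediate early genes 2 were higher and 2 lower: jun went from 8.31, 8.46 and 6.49 to 14.4, 16.4 and 21.3, fosab from 5.19, 7.31 and 3.7 to 16.1, 18.8 and 25.2, and the phosphatase genes dusp1 and dusp4 were lower. The lower ones were 1 without wild-type library 1 or pCas13d library 3. jun lost its call without wild-type library 3 (0.95) or without pCas13d library 3 (0.91). Of 29 genes of amino acid and oxidative stress 1 was higher (3 with a pseudocount of 0.1, and 2 in the recomputed TPM or without wild-type or pCas13d library 2) and 4 lower, among them the thioredoxin reductase gene txnrd3, from 213, 184 and 209 to 62.6, 67.3 and 46.5, and the superoxide dismutase gene sod1, from 149, 124 and 144 to 57.02, 66.5 and 35.5. The falls of xbp1, hspa4a, dusp1, txnrd3 and sod1 were all under 2-fold in TPM as deposited.

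Of the factors that open the zygotic genome, nanog and pou5f3 read higher with pCas13d by less than the 2-fold limit. nanog stood at 785, 785 and 613 in wild type and 1088, 1092 and 1232 with pCas13d (log2 difference 0.65 ± 0.16 SE, adjusted p = 0.0108), and pou5f3 at 403, 485 and 365 and 692, 709 and 980.3 (log2 difference 0.92 ± 0.18 SE, adjusted p = 0.00421). Both groups were separate for these genes but under 2-fold apart, and both genes passed the fold limit in TPM as deposited (1.54 and 1.81) and after quantile normalisation (1.98 and 2.00). pou5f3 also passed without wild-type library 2 (1.03) or without pCas13d library 1 (1.01). sox19b was not called, at 415, 330.3 and 379 and 283, 313 and 169 (log2 difference -0.6 ± 0.23 SE, adjusted p = 0.0635), and its sign turned in TPM as deposited. Of the 14 tested activators and cofactors 1 was higher, the acetyltransferase gene ep300b, which lost its call without pCas13d library 2 (0.98), beside 6.79% of all genes. klf2b was lower, from 46.9, 53.05 and 66.1 to 21.2, 25.4 and 21.3, a fall under the limit in TPM as deposited (-0.38). The count of higher genes was 9 in TPM as deposited and 5 after quantile normalisation. znf281b, the zinc finger gene knocked down in the znf281b KD embryos, stood at 159, 196 and 164 in wild type and 159.7, 188 and 205 with pCas13d (log2 difference 0.09 ± 0.14 SE, adjusted p = 0.629), and the groups overlapped. In TPM as deposited znf281b was not called either, but every wild-type library lay below every pCas13d-alone library, so its overlap depends on the scaling. Its paralogue znf281a was at 16.1, 17.7 and 13.5 and 6.5, 6.91 and 13.7 (log2 difference -0.81 ± 0.27 SE, adjusted p = 0.0389), overlapping through pCas13d library 3; without that library it was called lower, at -1.11.

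Several zygotic genes that pattern the germ layers varied as much within a group as between the groups. The notochord gene noto read 109, 182 and 49.1 in wild type and 105, 63.2 and 138 with pCas13d (log2 difference -0.03 ± 0.45 SE, adjusted p = 0.963), and the organizer gene gsc 21.2, 30.3 and 13.4 and 25.5, 13.7 and 24.6 (log2 difference -0.003 ± 0.32 SE, adjusted p = 0.995). tbxta, the Brachyury gene of mesoderm, read 10.9, 17.8 and 3.6 and 12.04, 8.4 and 21.96, and the BMP antagonist gene chrd 16.1, 21.1 and 8.11 and 15.7, 12.7 and 30.6. In each of them wild-type library 2 was the highest and library 3 the lowest of its group, and pCas13d library 2 was the lowest of its group. The keratin gene krt18a.1 of the enveloping layer had the same order, with 191, 334 and 81.3 against 249.5, 118 and 404. In TPM as deposited tbxta, chrd and krt18a.1 passed the limits as higher, with log2 differences of 1.30, 1.19 and 1.28. Of 23 mesendoderm regulators 2 were higher and 0 lower, of 12 dorsal factors 1 and 0, of 19 BMP and ventral factors 3 and 1, and of 11 enveloping layer genes 0 and 1, beside 6.79% and 12.3% of all genes. In TPM as deposited 9 mesendoderm, 7 dorsal, 4 BMP and ventral and 6 enveloping layer genes were higher and 0 lower. The groups did not overlap in 7 mesendoderm, 6 dorsal, 5 BMP and ventral and 3 enveloping layer genes, beside 56.7% of all genes.

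A few patterning genes did differ. aplnrb, a receptor for the Toddler peptide that guides mesendoderm movement, went from 91.3, 103 and 72.4 to 410.0, 406 and 411 (log2 difference 2.2 ± 0.14 SE, adjusted p = 9.77e-06), and the mean was 194 in wild type at 6 hpf and 787 ± 48.8 with znf281b KD. gata2a and gata3, ventral ectoderm factors, went from 4, 5.65 and 4.07 to 32.8, 28.4 and 38.5 and from 7.87, 13.7 and 9.73 to 46.6, 46.9 and 79.2. cdh1, E-cadherin, fell from 341, 393 and 372 to 132, 137 and 151 (log2 difference -1.39 ± 0.12 SE, adjusted p = 4.29e-05). bmper, a BMP modulator, was lower, from 3.48, 4.78 and 5.49 to 1.21, 0.94 and 0.85. The falls of cdh1 and bmper were under 2-fold in TPM as deposited, at -0.50 and -0.88. foxi1, an ectodermal factor, was higher, from 30.8, 31.9 and 22.2 to 63.8, 64.05 and 59.9, and lost its call without wild-type library 3 (0.98). eomesa, a maternal T-box factor, stopped just under the limit at 65.6, 62.1 and 63.99 against 144, 142 and 102, and passed it in TPM as deposited (1.87), with a pseudocount of 0.1 (1.001), without wild-type library 1 (1.01) or without pCas13d library 3 (1.15).

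To place the embryos on the timeline of the transition, gene sets were drawn from the wild-type stages in TPM as deposited without the 4 hpf libraries. Zygotic genes (570) were under 1 TPM at 0 and 2 hpf and at least 10 TPM and 4-fold higher at 6 hpf. Cleared maternal genes (3661) fell at least 4-fold between 2 and 6 hpf. Steady genes (1338) were at least 10 TPM at 2 and 6 hpf and differed between them by under 0.5 on the log2 scale. The median zygotic gene, in log2(scaled TPM + 1), stood at 2.49, 3.06 and 1.91 in the wild-type 4 hpf libraries and 1.86, 1.65 and 2.80 with pCas13d, beside 0.079 to 0.123 at 2 hpf and 5.91 to 6.02 at 6 hpf. The groups overlapped, with pCas13d library 3 next to wild-type library 2. The znf281b KD libraries lay lower, at 1.14 to 1.21. Of 431 zygotic genes tested 5.80% were higher and 12.5% lower, close to the 6.79% and 12.3% of all genes, and without the 5 RNA classes 25 of 408 were higher and 33 lower. The shares of all genes still include those classes. Over protein-coding genes, most of which lie outside the classes, the shares were 6.92% and 9.64%.

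Cleared maternal genes were more often lower with pCas13d. Their median stood at 4.61, 4.54 and 4.78 in wild type and 4.32, 4.38 and 4.05 with pCas13d, beside 5.13 to 5.15 at 2 hpf, 3.31 to 3.44 at 6 hpf and 4.50 to 4.53 with znf281b KD. Every pCas13d-alone library lay below every wild-type 4 hpf library. Of the 3658 tested, 701 were lower (19.2%) and 66 higher (1.8%), beside 12.3% and 6.79% of all genes. The median log2 difference was -0.32, and -0.12 after quantile normalisation, but it turned to 0.52 in TPM as deposited, where the median of all genes was 0.73. The genes of largest fall among them were sybu, which encodes the kinesin linker syntabulin of the vegetal pole, from 61.95, 65.4 and 79.3 to 1.99, 2.53 and 1.49 (log2 difference -4.55 ± 0.18 SE, adjusted p = 4.22e-07), zglp1, a GATA-like zinc finger gene, from 96.1, 78.8 and 98.6 to 5.81, 5.4 and 3.85, and depdc7b, from 29.8, 28.3 and 40.4 to 1.26, 1.95 and 1.36. The znf281b KD means were 4.15 ± 0.145, 7.09 ± 1.18 and 1.73 ± 0.385. The largest rise was that of ggps1, an enzyme of isoprenoid synthesis, from 11.6, 8.73 and 10.2 to 106, 124 and 124, followed by nelfa, of the polymerase pausing complex NELF, from 21.4, 22.7 and 25.2 to 109, 121 and 130.0. Steady genes differed as well, but they were steady only in TPM as deposited. In scaled TPM the median steady gene stood at 5.50 to 5.55 at 2 hpf and 6.903 to 6.975 at 6 hpf. At 4 hpf it was 5.67 to 5.84 in wild type and 5.90 to 6.095 with pCas13d. The set thus cannot separate a shift from a change with stage, which was not tested. Steady genes were compared in the same way as the other sets. Their median log2 difference was 0.36, with 15.6% of 1337 tested higher and 11.3% lower. Without the 5 RNA classes, which the shares of all genes include, it was 0.40, with 16.7% higher and 5.66% lower.

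**Figure D5:**
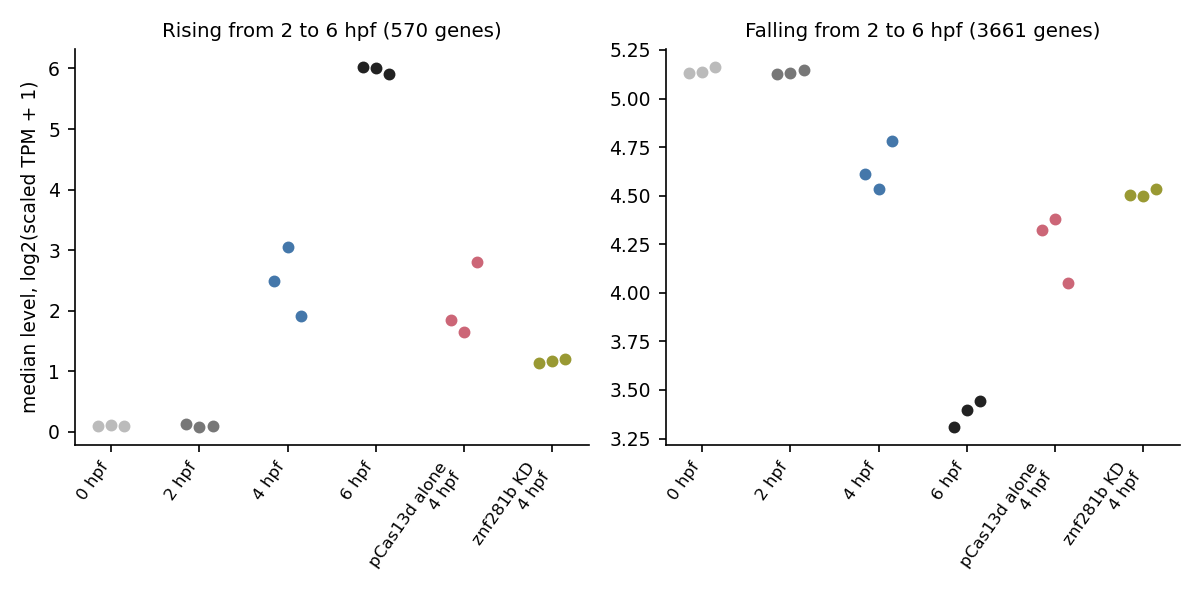
Median level per library, in log2(scaled TPM + 1), of the 570 zygotic genes (left) and 3661 cleared maternal genes (right) in wild type at 0, 2, 4 and 6 hpf and in pCas13d-alone and znf281b KD embryos at 4 hpf. For the zygotic genes the pCas13d points (1.65 to 2.80) overlap those of wild type at 4 hpf (1.91 to 3.06), and for the cleared maternal genes they lie below them and above those at 6 hpf.

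Named oocyte and germ plasm genes showed the same direction in part. Of 29 maternal oocyte genes 8 were lower and 0 higher, beside 12.3% and 6.79% of all genes, with a median of -0.14 that turned to 0.65 in TPM as deposited (1 lower and 11 higher) and 0.10 after quantile normalisation (7 and 3). bmp15, an oocyte growth factor, went from 35.1, 24.7 and 39.8 to 7.39, 10.1 and 4.2 (log2 difference -2.1 ± 0.29 SE, adjusted p = 0.000711), and slbp2, a binding protein of histone messages, from 118, 95.6 and 146 to 38.6, 45.7 and 19.4. zar1l, buc (Bucky ball, the organiser of the Balbiani body), mos, zp3, zp3d.2 and org were also lower, with buc going from 291, 217 and 342 to 131, 120.3 and 60.7. In TPM as deposited slbp2, zar1l, buc, zp3, mos, zp3d.2 and org were no longer past the limits, with buc at -0.60 (adjusted p = 0.131). Among those not called were npm2b, at a mean of 128 and 138, and cldnd, at 544 and 499.6.

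Of 20 germ plasm and piRNA genes 4 were lower and 1 higher, beside 12.3% and 6.79% of all genes, with a median of -0.63, which turned to 0.22 in TPM as deposited (2 lower and 5 higher). The Tudor genes tdrd1 and tdrd6, which build germ granules, went from 71.5, 60.9 and 79.4 to 16.4, 19.7 and 12.4 (log2 difference -2.08 ± 0.18 SE, adjusted p = 6.29e-05) and from 26.96, 35.95 and 55.2 to 11, 9.65 and 7.44. ca15b and hook2 were the other lower members. The higher one was ddx4, the Vasa helicase gene of germ cells, from 53.7, 79.3 and 67.6 to 216, 225 and 269.7 (log2 difference 1.82 ± 0.16 SE, adjusted p = 6.67e-05). dazl, a germ plasm RNA-binding protein, was separate between the groups but under 2-fold, at 79.3, 73.9 and 100.0 and 51.2, 43.5 and 37.6, and passed without wild-type library 2 or pCas13d library 1. In whole embryos, fewer germ cells and less RNA per germ cell cannot be told apart.

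Of 43 tested genes of messenger RNA storage and decay, 10 were higher and 3 lower (median 0.38), beside 6.79% and 12.3% of all genes, with 28 and 0 in TPM as deposited and 14 and 3 after quantile normalisation. cnot1, the scaffold of the CCR4-NOT deadenylase, went from 27.1, 34.8 and 31.9 to 114, 129 and 152 (log2 difference 2.04 ± 0.14 SE, adjusted p = 1.83e-05). The poly(A)-binding protein gene pabpc1a went from 365, 353 and 335 to 875, 984 and 1095, btg1, an adaptor of the deadenylase, from 21.2, 25.96 and 18.9 to 67.2, 65.04 and 109, and the storage protein gene ybx1 from 353, 464 and 309.9 to 748, 769 and 1055. The lower members were ddx6, a decapping activator, from 57.4, 61.5 and 62.8 to 22.5, 30.3 and 20.2, lsm1, of the ring that binds deadenylated ends, from 47.8, 34.7 and 55.01 to 23.2, 19.8 and 9.79, and cnot10. All 3 were under 2-fold in TPM as deposited. The pCas13d libraries did not overlap those of wild type in any of these 7 genes.

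Housekeeping lists differed in single members. Of 39 cell cycle genes 3 were higher and 6 lower (median 0.04), beside 6.79% and 12.3% of all genes, and the balance turned to 15 and 2 in TPM as deposited and 12 and 5 after quantile normalisation. The mitotic kinase gene aurkb went from 74.9, 53.2 and 73.7 to 13.3, 18 and 15.1 (log2 difference -2.05 ± 0.17 SE, adjusted p = 5.17e-05), cdk1 from 53.2, 37.01 and 43.5 to 13.5, 12.02 and 12.6, and the replication factor gene cdc45 from 38.3, 31.4 and 57.4 to 10.3, 9.91 and 11.3, while cdc25b, the phosphatase that activates the mitotic kinase, went from 131, 166 and 153 to 308, 337 and 370.4. Of 84 genes of cytosolic ribosomal proteins 1 was higher and 5 lower, both below the 6.79% and 12.3% of all genes. Their median of -0.30 turned to 0.59 in TPM as deposited (17 higher and 0 lower). rpsa went from 256, 246 and 227 to 80.99, 70.8 and 103 and rpl18 from 351, 306 and 259.8 to 663, 588 and 706. In TPM as deposited the falls of rpsa and cdk1 were under 2-fold. Leaving out single libraries took the count of lower genes from 3 (without pCas13d library 2) to 9 (without wild-type library 3), and rpl18 lost its call without wild-type library 3 (0.99).

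Nuclear genes of the respiratory chain did not follow the mitochondrial messages. Of 81 tested 17 were lower and 1 higher, beside 12.3% and 6.79% of all genes, with a median of -0.45, which turned to 0.41 in TPM as deposited, where 4 were lower and 10 higher. The ATP synthase subunit gene atp5po went from 99.6, 66.2 and 83.97 to 17.1, 13.6 and 16.99 (log2 difference -2.31 ± 0.17 SE, adjusted p = 2.39e-05) and stood at 13.3 ± 1.74 with znf281b KD; atp5pd went from 10.9, 7.19 and 10.7 to 1.22, 1.06 and 1.58. The higher gene was ndufa4l, from 343, 256 and 242 to 643, 496 and 598, which lost its call without wild-type library 2 or 3 or pCas13d library 1. Of 42 proteasome genes 5 were lower and 0 higher, near the 12.3% lower of all genes (median -0.21, and 0.67 in TPM as deposited, where 0 were lower and 10 higher). The lower ones were 3 without pCas13d library 1, after quantile normalisation or at a mean of at least 10 TPM. The numbered zinc finger genes are a large clustered family whose copies can share reads. Of 245 tested 38 were lower and 4 higher, beside 12.3% and 6.79% of all genes, with a median of -0.48. In TPM as deposited the median was 0.26, with 9 lower and 29 higher. After quantile normalisation 20 were lower and 7 higher, and 18 were lower at a mean of at least 10 TPM.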

How the data were processed

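The values the authors deposited are TPM per gene; the submitters' processing notes name STAR 2.7.3a, RSEM and the build danRer11. The annotation release is not given in the sources used here, and the read depth is unknown, since TPM keeps none. From the embryo and knockdown tables (32520 genes each) the 6 libraries were joined by gene identifier and scaled by median ratios over 12585 genes with at least 1 TPM in each. Genes with at least 1 TPM in at least 3 libraries were tested on log2(scaled TPM + 1) with limma 3.58.1 in R 4.3.3 (moderated, mean trend, tested on simulated data), which understates the change of low genes. Calls needed a Benjamini-Hochberg adjusted p (over all genes tested) under 0.05 and a 2-fold difference.

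The gene lists and the genes in them were chosen with earlier results of these data known, and 4 lists after values of this comparison were seen. The rule for names takes the 15 highest and 15 lowest called genes with at least 10 scaled TPM in the higher group, separate groups and a gene name, counting copies as 1, the ends of each list and some fixed genes. A few genes are not reported here, and they are left out of the list counts and the plots of single genes. Other genes were named after their values were seen. Replicate numbers do not pair the samples, because same-numbered libraries did not deviate together. Alternatives were other scalings (TPM as deposited, quantile normalisation), a pseudocount of 0.1, other filters, all 18 embryo libraries, a replicate block and leaving out each library. Protein-coding genes alone and TPM recomputed without 5 RNA classes were added after seeing the data. The oocyte table was not used here.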

Additional observations from a re-analysis of the deposited data

How the results depend on the processing

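The counts over all genes, 1015 higher and 1841 lower, were within 1.5 times with a pseudocount of 0.1, no filter on low values, all 18 embryo libraries or TPM recomputed without the 5 RNA classes. Leaving out each library in turn gave 889 to 1128 higher and 1747 to 1946 lower. They became 5297 and 776 in TPM as deposited and 3283 and 3513 with no fold minimum. Quantile normalisation gave 1672 higher genes, a mean of at least 10 TPM 1200 lower, and protein-coding genes alone 1209 lower (fewer genes were tested in the last 2). None of the called genes given with a value in every library changed direction under these settings, and those that lost or gained a call other than by dropping the fold minimum are given with the result. Of those not called, znf281a, sox19b, noto and gsc changed sign in TPM as deposited, gsc after quantile normalisation, and noto, gsc, tbxta, chrd and krt18a.1 when single libraries were left out. Among small list counts, leaving out 1 library took the lower BMP and ventral genes from 1 to 3 (without pCas13d library 3), the higher zinc finger genes from 4 to 2 (without wild-type library 3) and the higher mesendoderm genes from 2 to 1 (without wild-type library 3 or pCas13d library 1).

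With the replicate number as a replicate block, 996 genes were higher and 1816 lower. Same-numbered libraries of the groups deviated from their group means with correlations of 0.092, -0.259 and -0.377, so the numbers are only names. The block left 1 of 2 mesendoderm genes called higher and moved no other list count by over 1.5 times.

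TPM keeps no depth, so genes of low TPM are the least precise. With 3 libraries a group in 2 tables, no setting separates treatment from table, sequencer and library run.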
